A study of Mus musculus with 15 samples.

Results

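The transcripts of 10 immune checkpoint genes were followed in mouse mammary tumors and glands: the B7 family ligands Vtcn1 (B7-H4), Cd274 (PD-L1), Pdcd1lg2 (PD-L2), Cd276 (B7-H3), Cd80, Cd86, Icosl and Vsir (VISTA), and the receptors Pdcd1 (PD-1) and Ctla4. They were picked by symbol, and all 10 were found once among the 51826 genes of the deposited tables. RNA-seq covered 15 libraries of 13 mice. Trim24COE mice carry a transposon transgene in which a ubiquitin C promoter and a floxed stop precede a Flag-tagged murine Trim24 cDNA, and MMTV-Cre removes the stop in mammary epithelium. Mice 64, 567 and 897 gave the 3 carcinosarcomas of the Trim24COE group, and mice 89, 3956 and 273_5 its 3 carcinomas. Control glands came from 4 MMTV-Cre mice without the Trim24 transgene (133, 392, 417_3 and 517_3), so Cre was common to the tumors and the controls. The 3 non-TRIM24 tumors (219, FVB001 and FVB002) arose spontaneously in mice whose genotype the labels call unknown. The strain label is FVB for the series, whereas the study's text gives FVB or FVB/129 for the spontaneous tumors. The labels give no ages. The study lists an age for each Trim24COE mouse, not used here, and describes the glands as age-matched. Mice 133 and 3956 each had a second library in batch 2, which also held all non-TRIM24 tumors.

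B7 ligands sit on antigen-presenting, stromal, epithelial and tumor cells and meet receptors of the CD28 family on T cells. CD80 and CD86 costimulate through CD28 and are held back by CTLA-4, which binds the same ligands more tightly. PD-L1 and PD-L2 restrain T cells through PD-1, B7-H4, B7-H3 and VISTA are mostly described as inhibitory, and ICOS ligand costimulates through ICOS. PD-L1 is well known as a target of interferon gamma signaling, and B7-H4 as a ligand made by mammary luminal cells and many breast carcinomas.

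Several facts of the series touch these values. The deposited values are TPM, transcript abundance scaled for transcript length and to 1 fixed total per library. They do not keep the number of reads, so their counting error cannot be estimated. Trim24 itself was not higher in the libraries labelled Trim24COE: its TPM ran from 10.6 to 24.1 in them and from 14.5 to 22.4 in the control glands, with a difference of -0.24 ± 0.26 in log2(TPM + 1) (SE, 6 against 4, adjusted p = 0.557, limma). The study reports more Trim24 transcript by RT-PCR in these tumors than in Cre-only glands, and more TRIM24 and tag protein by staining. It states that its RNA-seq had predicted the RT-PCR result. The RT-PCR and staining are not analysed here, and the deposited TPM do not show that rise. Whether the TPM reference counted the transgene cDNA is not given in the sources used here. Every direction below rests on the labels as given. Control glands 417_3 and 517_3 were the most alike pair of all libraries (Spearman correlation 0.979 over 16775 genes, 2.92% of them more than 2-fold apart), more alike than the paired libraries of mouse 3956 (0.971 and 3.48%) or of mouse 133 (0.965 and 4.29%). Without counts the sampling noise cannot be tested, so both were kept and results are also given with the pair averaged. Adipocyte genes summed to between 26141 and 38870 TPM in control glands 133 and 392 and to between 1775 and 1963 in 417_3 and 517_3, against 126 to 1342 in the Trim24COE tumors. The epithelial marker Epcam was at 281 to 1275 TPM in the carcinomas and at 2.73 to 36.4 TPM in the carcinosarcomas. Of the 12 luminal genes 2 were called lower in the carcinomas, Esr1 (mean 1.13 against 9.74 TPM in controls, adjusted p = 0.0151) and Foxa1 (2.29 against 28.2 TPM, adjusted p = 0.0254), and the rest of the list did not pass. Of the tumor classes, 89, 567 and 3956 were read differently by the 2 pathologists of the study.

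The level of each gene was compared on the log2(TPM + 1) scale, where 1 TPM is added to limit noise at low values. This scale understates the change of low genes. A gene was called changed at an adjusted p under 0.05 over all genes tested. In bulk tissue, fewer cells of a type and less RNA per cell cannot be told apart.

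**Figure D1:**
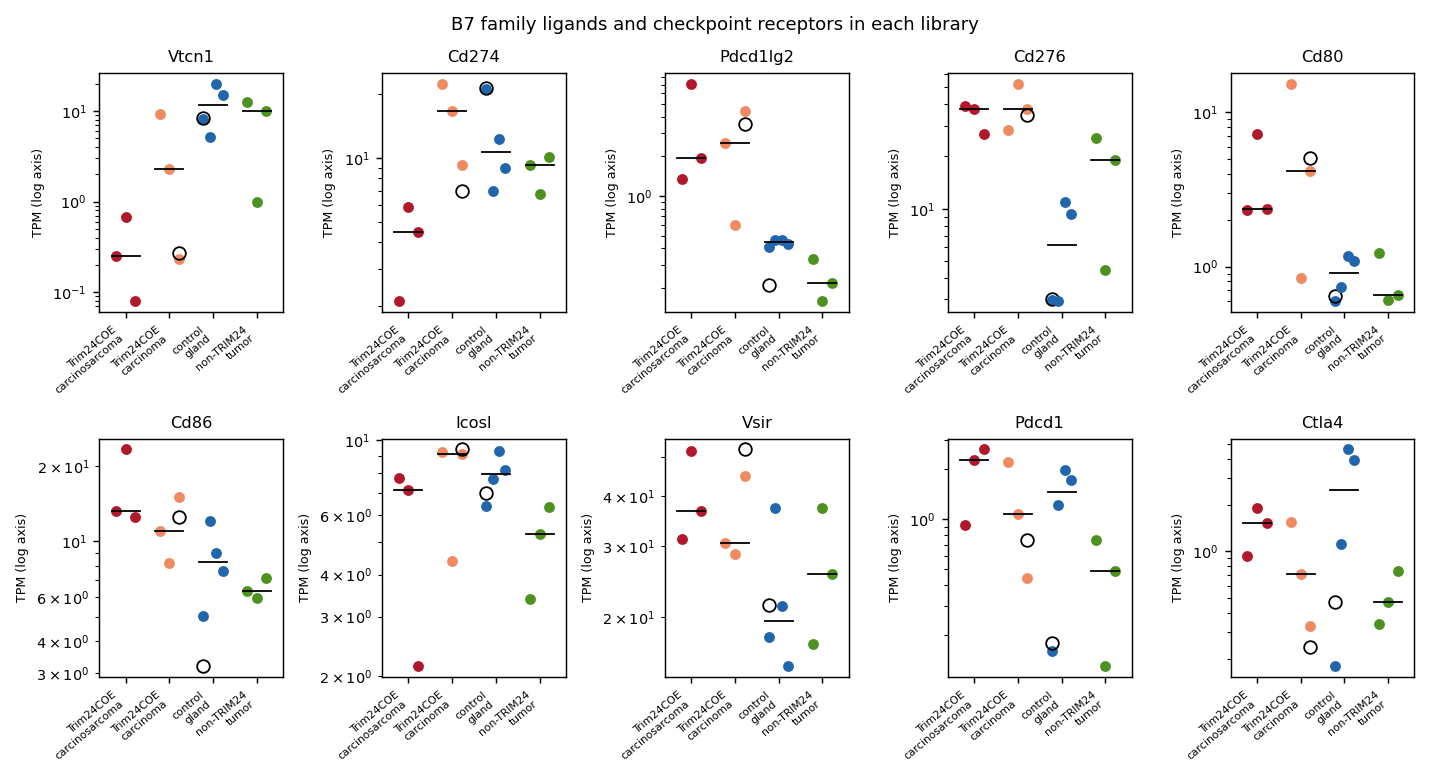
Level of each of the 10 genes (TPM, log axis) by group, with 1 filled point per mouse, a bar at the group median and an open circle for the second library of mice 133 and 3956. Vtcn1 lay at 0.67 TPM or less in the 3 carcinosarcomas and at 5.18 or more in the 4 control glands, and Cd276 lay at 26.9 TPM or more in all 6 Trim24COE tumors and at 10.9 or less in the controls.

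The order of the genes within a library differed between groups. TPM are scaled for length, so levels of different genes can be set side by side. Vsir had rank 1 or 2 of the 10 genes in all 15 libraries. Cd276 held rank 1 or 2 in all 6 Trim24COE tumors and a rank from 3 to 6 in the 4 control glands. Vtcn1 was the lowest of the 10, rank 10, in the 3 carcinosarcomas and in the first library of carcinoma 3956, but had rank 2 in control glands 417_3 and 517_3. The receptors Pdcd1 and Ctla4 had ranks from 5 to 10.

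Promoter sequences are shown for 4 genes, because Cd274 and Pdcd1lg2 are neighbors with unlike values, Vtcn1 showed the largest fall of the 10 genes, and Cd274 and Ctla4 were the genes with a motif match. Cd274 (chr19:29367455-29388095) and Pdcd1lg2 (chr19:29410919-29471161) lie 22.8 kb apart on the plus strand. Each sequence is the 250 bases before the RefSeq start site on GRCm38.p6, written 5′ to 3′ on the gene's strand, with the interferon-response core in capitals.
Cd274 (chr19:29367188-29367437, plus strand): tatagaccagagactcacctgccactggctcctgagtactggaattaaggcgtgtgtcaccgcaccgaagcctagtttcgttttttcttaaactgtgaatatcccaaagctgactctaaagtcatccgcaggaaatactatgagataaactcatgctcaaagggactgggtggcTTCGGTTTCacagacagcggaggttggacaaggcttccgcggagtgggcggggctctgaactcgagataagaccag
Pdcd1lg2 (chr19:29410669-29410918, plus strand): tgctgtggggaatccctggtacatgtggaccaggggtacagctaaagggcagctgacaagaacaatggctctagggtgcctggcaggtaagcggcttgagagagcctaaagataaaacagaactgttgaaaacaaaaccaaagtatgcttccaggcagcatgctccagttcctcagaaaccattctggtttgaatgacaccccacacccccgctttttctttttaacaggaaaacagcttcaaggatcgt
Vtcn1 (chr3:100825209-100825458, plus strand): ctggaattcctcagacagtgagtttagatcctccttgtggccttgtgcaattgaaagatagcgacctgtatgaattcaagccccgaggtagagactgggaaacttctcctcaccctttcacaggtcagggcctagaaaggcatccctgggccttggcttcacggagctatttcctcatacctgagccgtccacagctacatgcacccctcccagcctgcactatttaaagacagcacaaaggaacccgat
Ctla4 (chr1:60908775-60909024, plus strand): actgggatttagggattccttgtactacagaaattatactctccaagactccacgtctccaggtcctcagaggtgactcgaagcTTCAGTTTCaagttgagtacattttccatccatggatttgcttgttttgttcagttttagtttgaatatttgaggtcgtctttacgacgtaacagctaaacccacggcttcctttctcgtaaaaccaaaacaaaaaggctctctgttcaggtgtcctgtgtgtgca
A search of 300 bases around the start of the 9 genes with an entry (all but Cd86) covered TTCNNNGAA, the core of the gamma-activated site, and GAAANNGAA, the core of the interferon-stimulated response element, on both strands. The latter was found once in Cd274, at position -76 from the start, and once in Ctla4, at -166, both read on the minus strand. It is held by 8.55% of 32817 mouse promoters of this length. TTCNNNGAA was found in none of the 9 and is held by 8.29% of all promoters. A match is a string of letters and not a shown binding site.

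Vtcn1 was the member that fell in the Trim24COE tumors, and it fell furthest in carcinosarcomas. The study had already picked Vtcn1 from the top changed genes of its RNA-seq. By RT-PCR the study reports it lower in these tumors than in Cre-only glands. This gene (ENSMUSG00000051076, chr3:100825459-100896922) encodes B7-H4, which inhibits T cell proliferation. Its TPM was 0.25, 0.67 and 0.08 in carcinosarcomas 64, 567 and 897, against 8.19, 5.18, 20.0 and 15.1 in control glands 133, 392, 417_3 and 517_3. The carcinomas spread widely, at 9.38 in tumor 89, 2.28 in 273_5 and 0.23 in 3956. All 3 carcinosarcomas and carcinomas 273_5 and 3956 lay below every control gland, while carcinoma 89 lay within the control range. The difference was -3.17 ± 0.45 on the log2 scale for carcinosarcomas (SE, 3 against 4, adjusted p = 0.00331), and -2.46 ± 0.63 for all Trim24COE tumors (6 against 4, adjusted p = 0.0226). For carcinomas alone it was -1.76 ± 0.74 (3 against 4, adjusted p = 0.218), with a 95% interval from -3.46 to -0.06. Vtcn1 was under 1 TPM in all carcinosarcomas, so it entered that comparison through the control glands. The call over all Trim24COE tumors was lost without control gland 417_3 (adjusted p = 0.0659), without 517_3 (0.0623) and with both averaged (0.0646). It was also lost with no filter on low genes (0.0626) and with the adipocyte covariate (0.11). The call in carcinosarcomas held in every setting tried and without each of the 7 mice.

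In the comparison of all Trim24COE tumors with control glands, Vtcn1 was 1 of 10 members called lower, where 9.13% of 15196 tested genes were, and Cd276 was 1 of 10 called higher, where 7.96% were. In the carcinosarcomas, 1 of 10 was called lower against 13.1% of 15287 genes, and 3 of 10 were called higher against 9.83%. The median of the members was 0.42 over all tumors and 0.61 in carcinosarcomas, beside -0.04 and -0.12 for all genes tested. In the carcinomas, 1 of 9 tested members was called higher (background 1.58% of 15479 genes) and 0 were called lower (background 1.92%). These counts are a description of few members, and the study had already reported Vtcn1 as lower in these tumors. Of the 3 higher in carcinosarcomas, Cd276, Pdcd1lg2 and Cd80, Pdcd1lg2 and Cd80 reached the filter of 1 TPM through the tumors, so the count is not read against the background. With median-ratio scaling, the median of all genes in carcinosarcomas went from -0.12 to 0.08, and the share of higher genes among those called went from 42.8% to 57.0%.

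Cd276 rose in both tumor classes. This gene (ENSMUSG00000035914, chr9:58524298-58555437, minus strand) encodes B7-H3, found on many solid tumors and their stroma. Its level was 38.8, 37.4 and 26.9 TPM in carcinosarcomas 64, 567 and 897 and 28.3, 52.3 and 37.5 in carcinomas 89, 273_5 and 3956. The control glands held 2.98, 2.95, 10.9 and 9.38 TPM, in the order 133, 392, 417_3 and 517_3. No tumor overlapped the controls, and the controls themselves separated into the fat-rich glands 133 and 392 and the fat-poor glands 417_3 and 517_3. The difference was 2.48 ± 0.36 over all tumors (adjusted p = 0.00162), 2.39 ± 0.47 in carcinosarcomas (adjusted p = 0.0107) and 2.56 ± 0.50 in carcinomas (adjusted p = 0.0359). With the mean level of the adipocyte genes as a covariate, Cd276 remained past the threshold in these 3 comparisons, and the part of fat content in its size was not tested further. Over the alternative settings with no mouse left out, its smallest difference was 1.755 over all tumors, 1.307 in carcinosarcomas and 1.903 in carcinomas. The call over all tumors held in the 11 other settings and without each of the 10 mice. The call in carcinomas was lost without any single one of the 7 mice (adjusted p from 0.0538 to 0.11) and with 417_3 and 517_3 averaged (0.0589), and the call in carcinosarcomas was lost without tumor 64 (0.0553). The annotation has an antisense unannotated transcript, Gm10657, across part of this locus, and the strand setting of the counting is not given in the sources used here.

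Pdcd1lg2 was low in all glands and rose in carcinosarcomas, with its highest level in tumor 567. PD-L2 is the second PD-1 ligand, known chiefly from dendritic cells and macrophages. Its TPM (ENSMUSG00000016498) was 1.34, 7.06 and 1.95 in carcinosarcomas 64, 567 and 897, and 2.52, 0.60 and 4.44 in carcinomas 89, 273_5 and 3956. The 4 control glands lay close together, from 0.41 to 0.46 TPM. All 6 Trim24COE tumors lay above all 4 controls, carcinoma 273_5 by little. The rise in carcinosarcomas was 1.41 ± 0.42 on the log2 scale (adjusted p = 0.0434). It passed the filter of at least 1 TPM there through the tumors alone, and the call was lost without any single one of the 7 mice (adjusted p from 0.0541 to 0.0891) and with the adipocyte covariate (1.55, adjusted p = 0.0702). The call was also lost with no filter on low genes (adjusted p = 0.174) and with a mean of at least 1 TPM (0.059). All batch 1 groups in 1 fit (0.0659) and glands 417_3 and 517_3 averaged (0.0782) ended it too. Over all Trim24COE tumors the difference was 1.26 ± 0.40 (adjusted p = 0.0522), just outside the threshold. It came past it in 5 of 11 other settings, with a pseudocount of 0.1 TPM (adjusted p = 0.0351) or 0.5 TPM (0.0424), median-ratio scaling (0.0375), quantile normalization (0.0207) and the mean of both libraries of mice 133 and 3956 (0.0483), and without carcinoma 273_5 (0.0184). It was not tested across genes in carcinomas, where too few libraries reached 1 TPM. An exact permutation test of the log2 values gave p = 0.0286 for carcinomas, two-sided and unadjusted, the smallest that 3 against 4 allow. In this comparison the groups did not overlap in 21.4% of tested genes, so this p is not read as a result.

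Cd274, its neighbor, was lowest in carcinosarcomas, by a difference that did not pass the threshold. PD-L1 (ENSMUSG00000016496) was at 2.12, 5.88 and 4.47 TPM in carcinosarcomas 64, 567 and 897. It stood at 22.3, 16.6 and 9.24 TPM in carcinomas 89, 273_5 and 3956, and at 21.0, 7.01, 12.3 and 8.97 in control glands 133, 392, 417_3 and 517_3. Carcinosarcomas lay below every carcinoma and every control gland, and carcinomas and controls overlapped. The difference between carcinosarcomas and control glands was -1.34 ± 0.44 (95% interval -2.34 to -0.34, adjusted p = 0.0594) and did not pass the threshold, except without control gland 392 (adjusted p = 0.0456). Between carcinosarcomas and carcinomas it was -1.72 ± 0.44 (3 against 3, 95% interval -2.75 to -0.69, adjusted p = 0.179), and the exact permutation test gave p = 0.1, the smallest that 3 against 3 allow. Carcinomas differed from controls by 0.38 ± 0.44, with an interval from -0.64 to 1.41 (adjusted p = 0.683). Tumor 567 held more Pdcd1lg2 (7.06 TPM) than Cd274 (5.88 TPM), whereas Cd274 exceeded Pdcd1lg2 in the other 14 libraries. Both loci have an antisense gene in the annotation.

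Vsir was abundant in every library and did not pass the threshold in any comparison. This gene (chr10:60346851-60372684) encodes VISTA, which is carried mainly by myeloid cells. Its level was 31.2, 51.7 and 36.6 TPM in carcinosarcomas 64, 567 and 897 and 30.5, 28.8 and 44.7 in carcinomas 89, 273_5 and 3956. Control glands 133, 417_3 and 517_3 held 17.9, 21.4 and 15.2 TPM, but gland 392 held 37.4 and lay inside the tumor range. The difference over all tumors was 0.73 ± 0.28 (95% interval 0.11 to 1.34, adjusted p = 0.0952), which did not pass, and of the mice left out only gland 392 brought it past the threshold (adjusted p = 0.035). In carcinosarcomas it was 0.82 ± 0.35 (adjusted p = 0.126) and passed without gland 392 (0.0426) or with the adipocyte covariate (0.0468). Vsir lies within Cdh23, a protein-coding gene on the other strand.

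**Figure D2:**
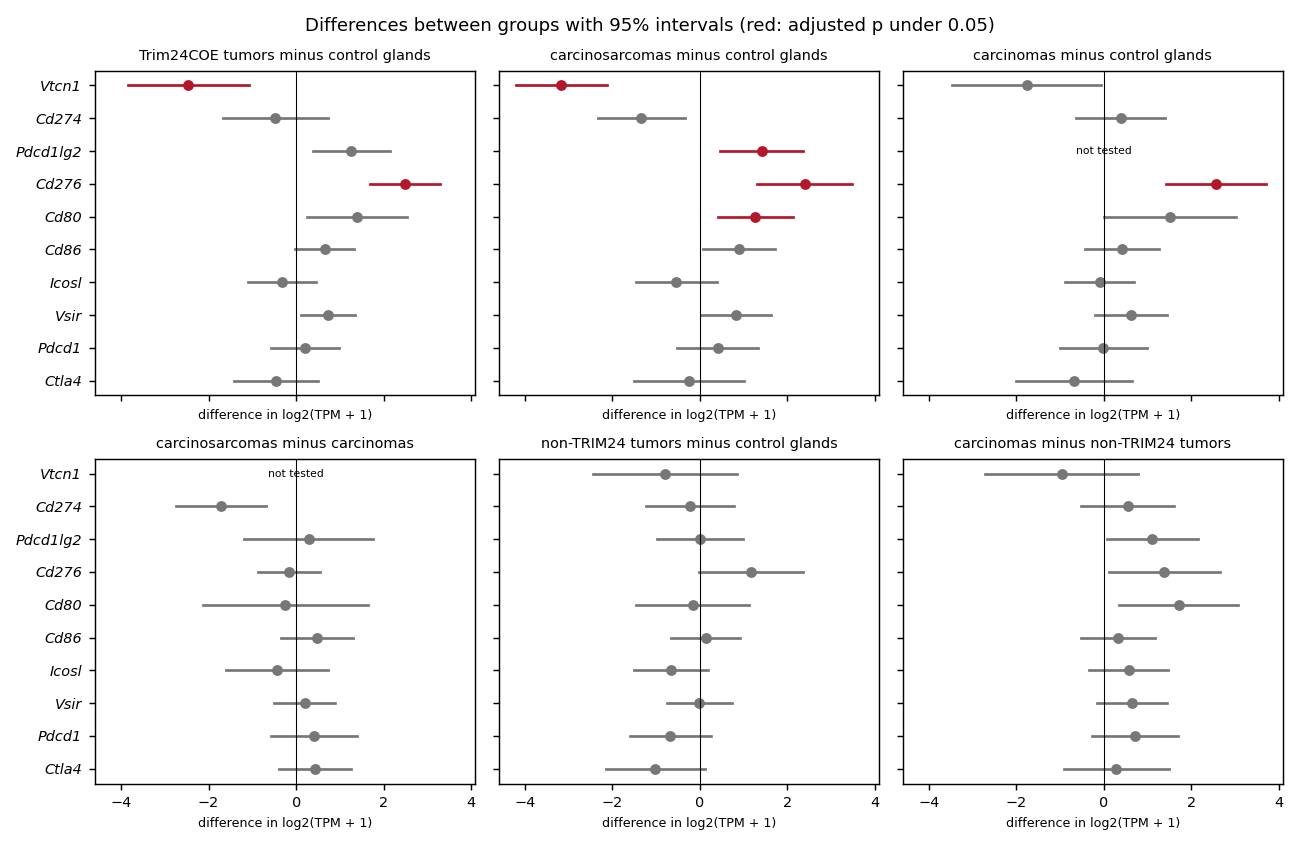
Difference in log2(TPM + 1) for each gene (points) with its 95% interval (lines) in 6 comparisons, red where the adjusted p was under 0.05. Red points are Vtcn1 and Cd276 for all Trim24COE tumors, Vtcn1, Pdcd1lg2, Cd276 and Cd80 for carcinosarcomas and Cd276 for carcinomas, and the lower row has none.

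Among the costimulatory ligands, Cd80 rose in carcinosarcomas. The gene lies at chr16:38455561-38496335, and CD80 appears on activated antigen-presenting cells and binds CD28, CTLA-4 and PD-L1. Its TPM was 2.32, 7.26 and 2.36 in carcinosarcomas 64, 567 and 897, against 0.60, 0.74, 1.17 and 1.08 in control glands 133, 392, 417_3 and 517_3. Carcinoma 89 held 15.2 TPM, the most of all libraries, while 273_5 held 0.84 and 3956 held 4.18. The carcinosarcomas and carcinomas 89 and 3956 lay above the controls, and 273_5 lay among them. The difference was 1.26 ± 0.37 in carcinosarcomas (adjusted p = 0.0431), and this call too was lost without any single one of the 7 mice (adjusted p from 0.0639 to 0.12) and with the adipocyte covariate (1.13, adjusted p = 0.121). No filter on low genes (adjusted p = 0.172) and a mean of at least 1 TPM (0.0569) ended this call as well. So did all batch 1 groups in 1 fit (0.18) and glands 417_3 and 517_3 averaged (0.0675). Over all tumors it was 1.39 ± 0.52 (adjusted p = 0.0865), and without carcinoma 273_5 it became 1.67 (adjusted p = 0.0308). In carcinomas it was 1.51 ± 0.65 (adjusted p = 0.23).

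Cd86 (chr16:36603869-36666081, minus strand), the other ligand of CD28 and CTLA-4, was higher in level but differed less. It stood at 13.3, 23.2 and 12.6 TPM in the carcinosarcomas, in the order 64, 567 and 897, and at 11.03, 8.21 and 14.96 in carcinomas 89, 273_5 and 3956. Control glands ran from 5.05 in gland 133 to 12 in gland 392. The carcinosarcomas lay just above the controls and the carcinomas overlapped them. The difference in carcinosarcomas was 0.88 ± 0.36 (95% interval 0.06 to 1.70, adjusted p = 0.11), past the threshold only with median-ratio scaling (1.09, adjusted p = 0.0362) or quantile normalization (1.10, adjusted p = 0.045). Over all tumors it was 0.65 ± 0.31 (adjusted p = 0.172).

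Icosl (chr10:78069302-78083913), which encodes the ligand of ICOS, overlapped between all batch 1 groups. Carcinosarcomas ran from 2.14 in tumor 897 to 7.74 in tumor 64, carcinomas from 4.40 to 9.25, and control glands from 6.37 to 9.31 TPM. The difference over all tumors was -0.32 ± 0.35, with an interval from -1.09 to 0.45 (adjusted p = 0.568), so a change of up to about 1 log2 unit in the lower direction was not resolved.

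The receptors were scarce throughout. Pdcd1 (chr1:94038305-94052553, minus strand), the PD-1 receptor of activated and exhausted T cells, was at 0.92, 2.27 and 2.64 TPM in carcinosarcomas 64, 567 and 897, at 2.22, 1.08 and 0.44 in carcinomas 89, 273_5 and 3956, and between 0.16 and 1.99 in control glands. Ctla4 (chr1:60887000-60915832), a receptor of regulatory and activated T cells, ran from 0.94 to 1.91 TPM in carcinosarcomas and from 0.33 to 1.55 in carcinomas. In control glands Ctla4 spanned 0.18 in gland 133 to 4.60 in gland 417_3, a range that held both tumor classes. Neither receptor passed the threshold in any of the 6 comparisons as designed. The differences over all tumors were 0.20 for Pdcd1 (95% interval -0.58 to 0.98, adjusted p = 0.734) and -0.46 for Ctla4 (interval -1.42 to 0.49, adjusted p = 0.495), and the sign for Pdcd1 turned with the adipocyte covariate. The Ctla4 locus also holds a ribosomal protein pseudogene, Rpl18-ps1, on the same strand. With the adipocyte covariate Ctla4 was called lower in carcinosarcomas, at -1.46 (adjusted p = 0.0427). Carcinoma 3956, the lowest of the Trim24COE tumors for both receptors, also had the lowest sum of 10 T cell genes, 5.36 TPM, against 32.6 to 52.5 in the other Trim24COE tumors and 43.9 to 74.8 in the controls. The part of T cell content in the receptor values was not tested.

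Groups that did not overlap were counted as well. In carcinosarcomas, 6 of 10 members (Vtcn1, Cd274, Pdcd1lg2, Cd276, Cd80 and Cd86) were wholly above or below the controls, where 37% of tested genes were. Vtcn1 passed the filter there through the control glands, and Pdcd1lg2 and Cd80 through the tumors, so the count is not read against that share. Over all Trim24COE tumors 2 of 10 did so, Pdcd1lg2 and Cd276, against 14.6% of genes. Pdcd1lg2 passed the filter through the tumors there too, so this count is likewise not read against its share. Among the 9 members tested in carcinomas, only Cd276 did, against 21.4% of genes, and between carcinosarcomas and carcinomas only Cd274 did, against 21.8%. None of 9 tested members passed the limma threshold between carcinosarcomas and carcinomas, where 0.698% of 14193 genes did. Of the 9, 1 had an unadjusted p under 0.05, Cd274 at 0.00562, as did 2126 of the 14193 genes. Vtcn1 was not tested there, as too few tumors reached 1 TPM.

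Marker genes of immune and other cells differed between the groups beside these genes. Ptprc, Coro1a and Laptm5, which mark leukocytes, summed to between 141 and 409 TPM in the 6 Trim24COE tumors and between 67.5 and 157 in the controls. The 10 macrophage genes, including Csf1r and C1qa, summed to between 2652 and 7783 TPM in the Trim24COE tumors and between 886 and 1620 in the controls, without overlap, and 8 of 10 were called higher. None of the 10 T cell genes was called higher and 1 was called lower. The 8 dendritic cell genes ran from 20.3 to 80.7 TPM in the tumors and from 21.1 to 38.6 in the controls, with the highest sum in tumor 567, which also held the most Cd86 and Pdcd1lg2. Carcinosarcomas had luminal sums of 314 to 1417 TPM against 1059 to 5307 in the controls, with 10 of 12 luminal genes called lower, and mesenchymal sums of 5139 to 10805 against 686 to 1400, with 6 of 8 called higher. No gene of the leukocyte, macrophage, T cell, luminal or mesenchymal lists was at 0 in any Trim24COE tumor or control gland. The part of these cell types in the values of the 10 genes was not tested.

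**Figure D3:**
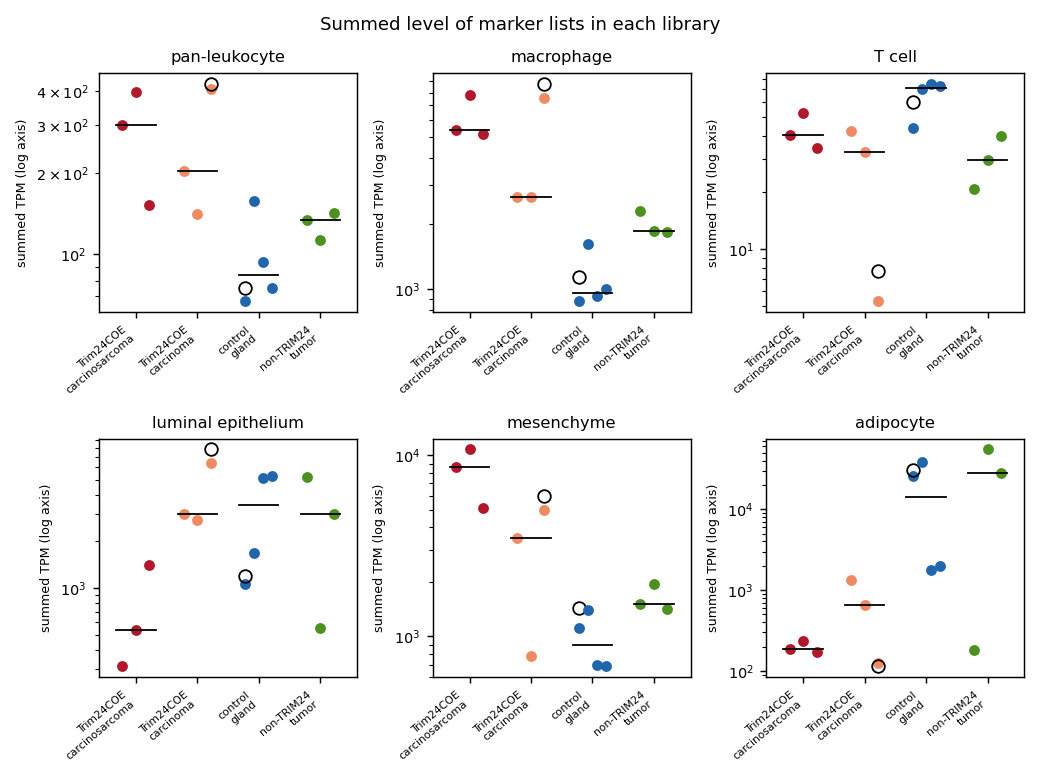
Summed TPM (log axis) of 6 marker lists by group, with 1 filled point per mouse, a bar at the group median and an open circle for the second library of mice 133 and 3956. Macrophage genes were higher in all 6 Trim24COE tumors than in all 4 control glands, T cell genes were lowest in carcinoma 3956, and adipocyte genes divided both the control glands and the non-TRIM24 tumors.

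Dividing each gene by Ptprc in the same library gives its level per leukocyte marker, as a description. Cd276 per Ptprc was 0.794 to 2.38 in the Trim24COE tumors and 0.159 to 0.666 in the controls, still apart. It was also high in the non-TRIM24 tumors, at 1.27 to 3.68, where Ptprc was 3.49 to 7.39 TPM, so a raised ratio is not particular to the Trim24COE tumors. Vtcn1 per Ptprc was 0.0039 to 0.0186 in carcinosarcomas and 0.279 to 1.07 in the controls. Cd274 per Ptprc was 0.107 to 0.218 in carcinosarcomas and 0.378 to 1.85 in the controls. For Pdcd1lg2 the ratio was 0.0678 to 0.196 in carcinosarcomas and 0.0192 to 0.0361 in the controls, but carcinoma 273_5, at 0.0273, fell among the controls. Cd80 per Ptprc was 0.115 to 0.202 in carcinosarcomas and 0.0398 to 0.0767 in the controls. In the non-TRIM24 tumors Cd80 per Ptprc was 0.088 to 0.178, overlapping the carcinosarcomas, and Pdcd1lg2 per Ptprc was 0.0298 to 0.0478, below them. Cd86 per Ptprc overlapped, at 0.611 to 0.672 in carcinosarcomas and 0.375 to 0.646 in the controls, and so did Vsir, at 1.44 to 1.78 and 0.89 to 2.01. Ptprc itself was 39.2 TPM in the first and 24.6 in the second library of mouse 3956, so these ratios carry that spread.

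**Figure D4:**
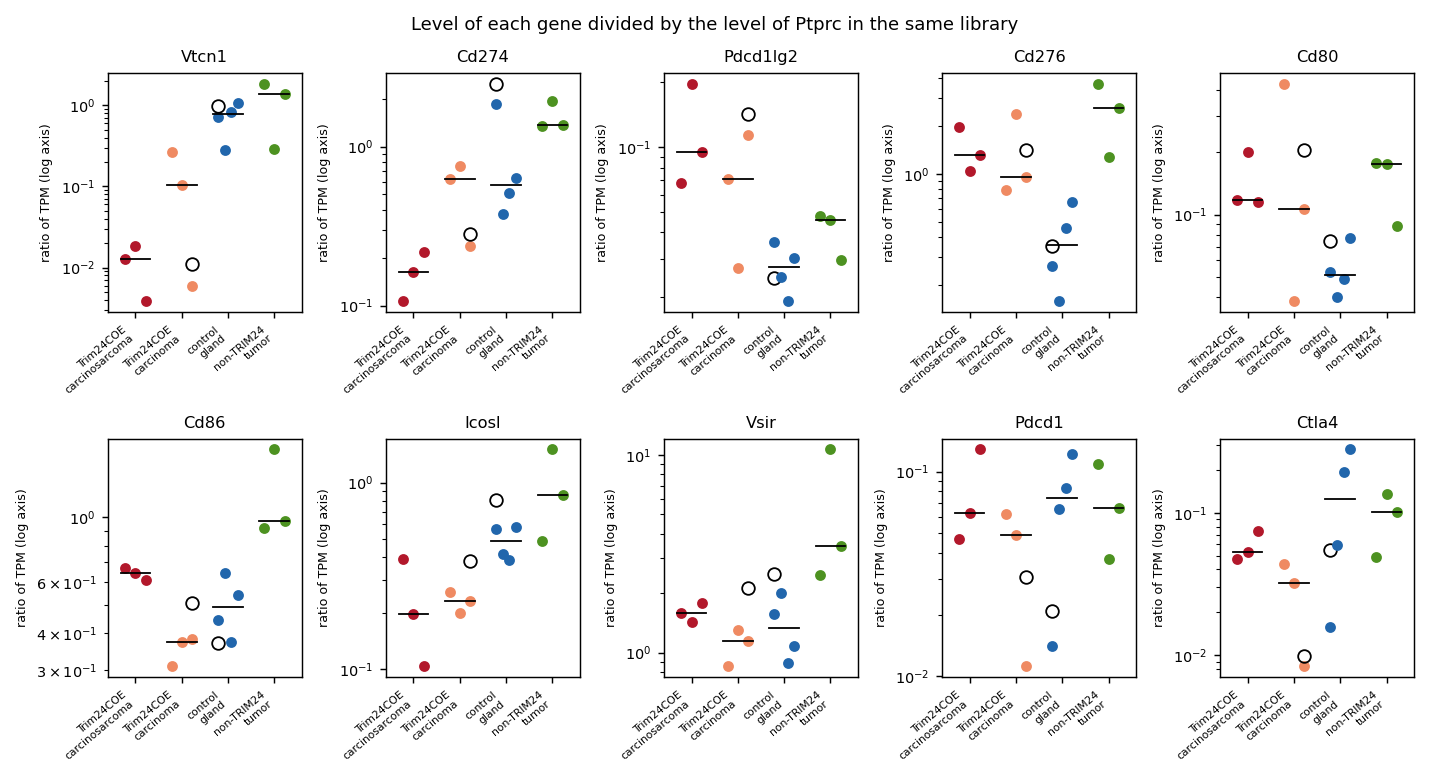
Ratio of the TPM of each gene to the TPM of Ptprc in the same library (log axis), by group, with 1 filled point per mouse, a bar at the group median and an open circle for the second library of mice 133 and 3956. Cd276 lay between 0.794 and 2.38 in Trim24COE tumors, at 0.666 or less in controls and between 1.27 and 3.68 in non-TRIM24 tumors. Vsir overlapped between Trim24COE tumors and controls.

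Other checkpoint and costimulatory genes were examined as a list of 33, of which 24 were tested over all Trim24COE tumors and 23 in carcinosarcomas. Over all tumors 5 were called higher and 4 lower, beside 7.96% and 9.13% of all genes, with a median of 0.22 beside -0.04 for all genes. In carcinosarcomas 2 were called higher and 5 lower, beside 9.83% and 13.1% of all genes, with a median of -0.06 beside -0.12. Over all tumors both counts lay above those shares. In carcinosarcomas the count of lower genes lay above its share and the count of higher genes near its share. Several called genes passed the filter only through the group where they were high, so the counts are not read against the background. The genes are given for their own values. Tnfrsf9, which encodes the costimulatory receptor 4-1BB, rose most, from a mean of 2.04 TPM ± 1.38 in controls (SD, n = 4) to 77.1 ± 25.7 in carcinosarcomas (n = 3), a difference of 4.73 ± 0.41 (SE, adjusted p = 0.000828). Sirpa, the myeloid receptor for CD47, rose by 1.53 ± 0.33 (adjusted p = 0.0148). Btn1a1, a butyrophilin of the B7-like superfamily secreted with milk fat, fell by 5.10 ± 0.66 on the log2 scale, from 89.1 ± 62.4 to 1.15 ± 0.84 TPM (adjusted p = 0.00232). Cd27, a costimulatory receptor of T cells, fell by 1.39 ± 0.27 (adjusted p = 0.0101), Cd226, an activating receptor of T and NK cells, by 1.09 ± 0.20 (adjusted p = 0.00924) and Btla, an inhibitory lymphocyte receptor, by 1.09 ± 0.24 (adjusted p = 0.0177). Cd160, a receptor of NK and T cells, was called lower in both comparisons, and fell by 1.16 ± 0.24 over all tumors (adjusted p = 0.00878). In carcinosarcomas Cd226, Btla and Cd160 were at most 0.18, 0.60 and 0.39 TPM, so they passed the filter there through the control glands alone. Cd160 was at most 0.56 TPM over all Trim24COE tumors, so the same holds for its call there. The others called higher over all tumors were Sirpa, Cd40, a costimulatory receptor of antigen-presenting cells, at 1.03 ± 0.29 (adjusted p = 0.031), and Havcr2, the inhibitory receptor TIM-3, at 1.24 ± 0.35 (adjusted p = 0.034). Vsig4, a complement receptor of macrophages, went from 0.0625 to 2.24 TPM over all tumors (difference 1.46 ± 0.36, adjusted p = 0.0187) and passed the filter through the tumors alone. Vsig4 was also the 1 gene of 26 tested on this list that was called in carcinomas (adjusted p = 0.0255).

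The interferon-gamma pathway list, written around the regulation of PD-L1, had 20 genes. In carcinosarcomas 19 were tested, 1 was called higher and 3 lower, beside 9.83% and 13.1% of all genes, with a median of -0.54 beside -0.12 for all genes. The counts are near those shares and are not read as a result about the list. Ifngr2, a chain of the interferon-gamma receptor, rose by 1.05 ± 0.31 (adjusted p = 0.0414). Ido1, a tryptophan-degrading enzyme induced by interferon, fell by 2.64 ± 0.68 (adjusted p = 0.0273), Tap1, a peptide transporter for MHC class I, by 1.40 ± 0.38 (adjusted p = 0.0323), and Psmb9, an immunoproteasome subunit, by 1.08 ± 0.30 (adjusted p = 0.037). Ido1 was at most 0.64 TPM in carcinosarcomas and passed the filter there through the control glands alone. Irf1, an interferon-induced transcription factor, was 61.7 ± 6.88 TPM in carcinosarcomas (SD, n = 3) and 114 ± 66.7 in controls (n = 4), and did not pass. Over all tumors 1 of 19 was called higher, Ifngr2, and 1 lower, Ido1, and in carcinomas 0 of 20 were called in either direction. The highest Irf1 of the carcinomas (187 TPM) stood with the highest Cd274 of that class, 22.3 TPM, in tumor 89.

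**Figure D5:**
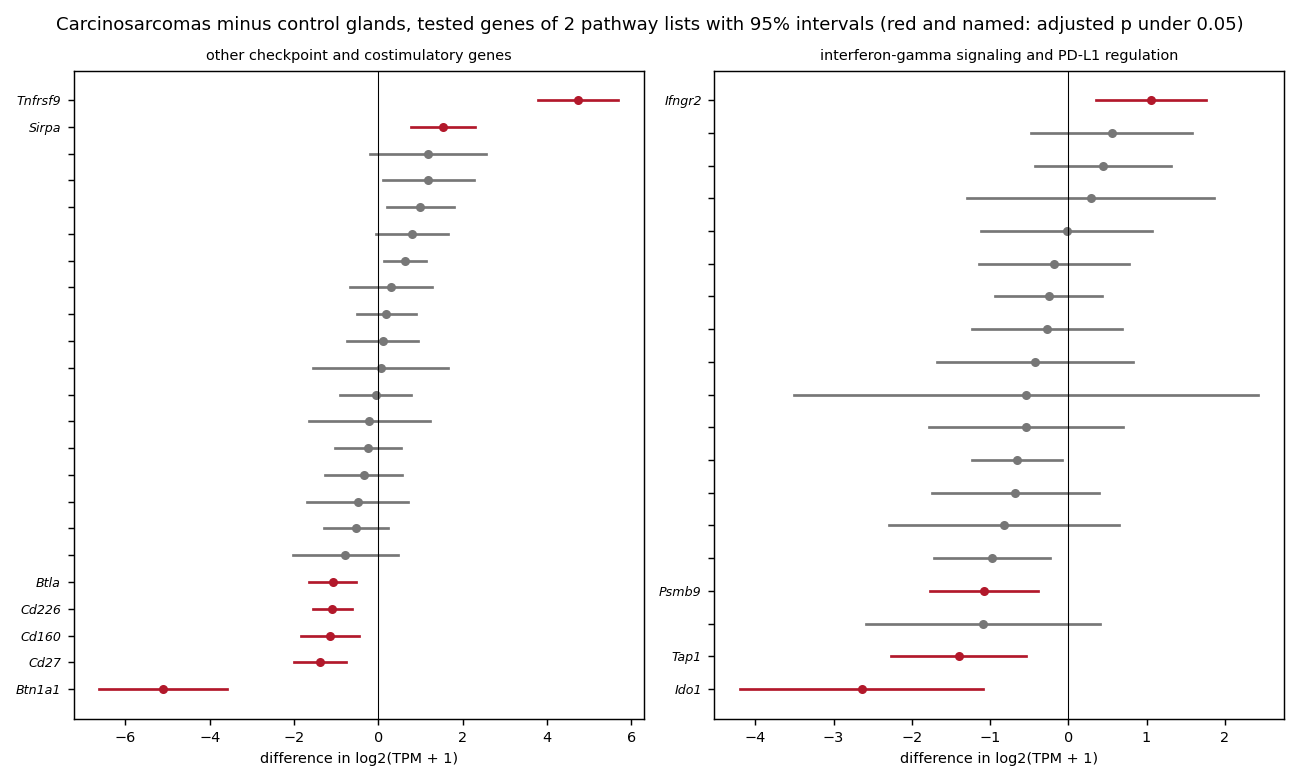
Difference in log2(TPM + 1) between carcinosarcomas and control glands for the tested genes of both lists, with 95% intervals, red and named where the adjusted p was under 0.05. Tnfrsf9 (4.73) and Btn1a1 (-5.10) were the extremes of the 23 checkpoint genes, and 1 of the 19 interferon-gamma genes rose while 3 fell.

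The non-TRIM24 tumors resembled neither group uniformly. Vtcn1 was 12.6, 1.00 and 10.1 TPM in tumors 219, FVB001 and FVB002. Cd276 was 25.4, 4.44 and 19.1 TPM, so FVB001 was within the control range and the others above it. Cd274 was 9.25, 6.76 and 10.1 TPM, and Pdcd1lg2 was 0.33, 0.16 and 0.22 TPM, below every first library of the other groups. Those first libraries are all of batch 1, and the batch 2 library of control gland 133 held 0.21 TPM of Pdcd1lg2, within the range of these tumors. Tumor FVB001 also held 55268 TPM of adipocyte genes and 36.4 TPM of Epcam, against 180 and 516 in tumor 219. In a fit of all 15 libraries with batch as a term, which rests on mice 133 and 3956, 0 of 10 members passed between non-TRIM24 tumors and control glands (0.709% of 16775 genes did). An unadjusted p under 0.05 was seen in 0 of 10 members and in 3235 of the 16775 genes. Cd276 was closest, at 1.16 ± 0.55 (95% interval -0.03 to 2.35, adjusted p = 0.269). Pdcd1lg2 differed by 0.006 in this fit (adjusted p = 0.997). The median of all genes was -0.27 in this comparison and 0.00 with median-ratio scaling, so differences near that size follow the scaling, and the share of higher genes among those called went from 28.6% to 49.4%. Only Icosl lay wholly apart from the control libraries, at 3.38, 5.26 and 6.33 TPM, where 26.4% of genes did. The lowest control library, the first of gland 133, was close by at 6.37 TPM, and the fit gave -0.67 (adjusted p = 0.356).

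Against the same non-TRIM24 tumors, the Trim24COE carcinomas held more Cd276, Pdcd1lg2 and Cd80 without passing the threshold. The differences were 1.39 ± 0.59 for Cd276 (interval 0.12 to 2.65, adjusted p = 0.253), 1.11 ± 0.49 for Pdcd1lg2 (interval 0.06 to 2.16, adjusted p = 0.263) and 1.71 ± 0.63 for Cd80 (interval 0.34 to 3.07, adjusted p = 0.217). These 3 of 10 members had an unadjusted p under 0.05, as did 2953 of 16775 genes, so the count is not read as a result. With adjustment 0 of 10 passed, where 0.0298% of genes did. In 3 of 10 members, Cd276, Pdcd1lg2 and Cd86, the libraries did not overlap, and neither did those of 30.3% of genes. This count is near that share, takes the TPM without a batch term and is not read as a result. Within batch 2, the second library of carcinoma 3956 held 34.7 TPM of Cd276, 3.50 of Pdcd1lg2 and 12.6 of Cd86, above all 3 non-TRIM24 tumors of that batch, but it is a single mouse. This comparison and the one with control glands share the non-TRIM24 tumors, and the 3 comparisons with batch 1 controls share those controls.

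Over the 10 first libraries of batch 1, some members varied together. These correlations of log2(TPM + 1) are descriptions over libraries that also differ in group and tissue makeup. Cd86 and Vsir had r = 0.89, Cd86 and Pdcd1lg2 0.84, Cd80 and Pdcd1lg2 0.81, Pdcd1 and Ctla4 0.76, and Vtcn1 and Vsir -0.76. Cd274 had r under 0.7 with every other member, the highest being 0.64 with Vtcn1. Of all genes with a mean of at least 1 TPM, leaving out those with clone-style names, the most alike were Syn2, Acss1 and Cadps2 for Vtcn1 (r from 0.986 to 0.988), mt-Nd5, Zfp974 and Sbk1 for Cd274 (0.93 to 0.936), Htr7, Spon1 and F10 for Pdcd1lg2 (0.971 to 0.974) and Eif4e2, Ak6 and Cdc42se1 for Cd276 (0.984 to 0.99). For Cd86 they were Aldh3b1, Arhgap25 and Fkbp1b (0.936 to 0.975), for Vsir Acp2, Cd200r1 and Ccl9 (0.929 to 0.938), and for Icosl Bcl2l12, Ramp1 and Cd200 (0.945 to 0.955). Cd80 was most like Tmsb15a, at 0.98, Pdcd1 like Clip1, at 0.901, and Ctla4 like Ptx3, at 0.954.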

How the data were processed

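The deposited tables hold TPM for each gene and library, which per the authors' methods came from alignment to GRCm38 with STAR and estimation with RSEM on GENCODE annotation. The labels also name TopHat, Cufflinks and another library kit, and which tool served which library is not given in the sources used here. Groups came from the labels. Gene positions are from GENCODE M21 on GRCm38, and promoters from RefSeq on GRCm38.p6, where 9 of 10 members had an entry.

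Values were compared as log2(TPM + 1) with the moderated two-sided test of limma 3.58.1 (R 4.3.3), its variance prior following the mean level. P-values were adjusted over all genes tested by Benjamini-Hochberg, and an adjusted p under 0.05 was called. To be tested, a gene needed at least 1 TPM in a number of libraries equal to the smaller group. Batch 1 comparisons took 1 library per mouse, the first, and only the groups compared. Non-TRIM24 tumors were compared in a fit of all 15 libraries, with batch as a term, a correlation within mouse of 0.951 and a filter of 1 TPM in 3 libraries. Replicates are separate mice. Exact permutation tests used scipy 1.17.1 in Python 3.11.15. The fits were tested on simulated data.

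The 10 members and the lists were chosen with earlier results of these data known. Named genes are all members and, from 2 pathway lists, up to 6 per list and comparison with the smallest p past the threshold, and the 3 genes most alike in pattern to each member. Irf1, Cd40, Havcr2 and Foxp3 were chosen after their values were seen. Alternatives covered pseudocount, filter, scaling, variance trend, adipocyte covariate, libraries used, batch term and each mouse left out, and the averaging of glands 417_3 and 517_3 was added after seeing the data.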

Additional observations from a re-analysis of the deposited data

How the results depend on the processing

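Depth is unknown for these TPM, so the precision of low genes such as Pdcd1 and Ctla4 rests on the mice alone. Over the 10 members, 6 comparisons and all alternatives, 1147 values were recomputed: 1035 kept direction and call, 39 lost the call, 15 gained it and 58 turned direction, and no value that turned was past the threshold before or after. The causes were not tested. The groups' labels give no shared replicate numbers, so no pairing was used. Where mouse 133 or 3956 was left out, the correlation within mouse could not be estimated and was set to 0.

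Members past the threshold over all Trim24COE tumors (2) were 4 with quantile normalization and 1 with no filter, with the adipocyte covariate or with glands 417_3 and 517_3 averaged, and 1 to 4 with a mouse left out. In carcinosarcomas (4) they were 2 with no filter, a mean of at least 1 TPM, all batch 1 groups in 1 fit or the glands averaged, and 1 to 4 with a mouse left out. In carcinomas (1) they were 0 with no filter or the glands averaged, and 0 with any mouse left out.

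Genes past the threshold over all Trim24COE tumors (2597) were 1264 with the adipocyte covariate. In carcinosarcomas (3511) they were 1623 with no filter, and 1345 (without tumor 64) to 3093 with a mouse left out. In carcinomas (542) they were 46 with no filter, 837 with the covariate, 1170 with all batch 1 groups and 82 with the glands averaged, and 72 (without gland 517_3) to 526 with a mouse left out. Between carcinosarcomas and carcinomas (99) they were 0 with no filter, and 0 to 293 with a mouse left out. Between non-TRIM24 tumors and glands (119) they were 50 with no filter, 18 with libraries as independent, 2330 with no batch term, 51 with the glands averaged and 2 (without tumor 3956) to 151 with a mouse left out. Between carcinomas and non-TRIM24 tumors (5) they were 2 at a pseudocount of 0.1, 3 at 0.5, 8 with no filter, 2 at a mean of 1 TPM, 3 with libraries as independent, 1500 with no batch term, 2 with the glands averaged and 0 (without tumor 3956) to 66 with a mouse left out.

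Values that turned direction are log2 differences, none past the threshold. Over all Trim24COE tumors, Cd274 (-0.48) was 0.16 with the covariate, and Pdcd1 (0.20) was -0.10 with the covariate and -0.094 to 0.36 without a mouse. In carcinosarcomas against glands, Ctla4 (-0.24) was 0.25 with quantile normalization, 0.044 with the glands averaged and -0.67 to 0.076 without a mouse, and Pdcd1 (0.41) was -0.13 with the covariate. In carcinomas against glands, Pdcd1 (-0.007) was 0.092 at a pseudocount of 0.1, 0.009 at 0.5, 0.032 with median-ratio scaling, 0.22 with quantile normalization, 0.039 with both libraries averaged, 0.13 with the glands averaged and -0.31 to 0.28 without a mouse, and Icosl (-0.10) was -0.26 to 0.21 without a mouse. Between carcinosarcomas and carcinomas, Cd276 (-0.17) was 0.008 with median-ratio scaling and -0.38 to 0.057 without a mouse, Cd80 (-0.25) was -1.02 to 0.55 without a mouse, Pdcd1lg2 (0.29) was -0.25 to 0.69 without a mouse, Vsir (0.19) was -0.007 to 0.39 without a mouse, and Icosl (-0.44) was -0.75 to 0.034 without a mouse. Between non-TRIM24 tumors and glands, Pdcd1lg2 (0.006) was -0.18 at a pseudocount of 0.1, -0.042 at 0.5, -0.027 with quantile normalization, -0.27 with libraries as independent, -0.22 with no batch term and -0.76 to 0.051 without a mouse, Cd274 (-0.23) was 0.073 with median-ratio scaling, 0.16 with quantile normalization and -1.21 to 0.93 without a mouse, Vsir (-0.014) was 0.31 with median-ratio scaling, 0.29 with quantile normalization, 0.22 with no batch term and -0.47 to 0.26 without a mouse, Pdcd1 (-0.68) was 0.058 with libraries as independent and -0.82 to 0.28 without a mouse, Cd86 (0.13) was -0.28 with no batch term and -0.64 to 0.84 without a mouse, Vtcn1 (-0.80) was -1.31 to 0.52 without a mouse, Cd80 (-0.17) was -0.32 to 0.14 without a mouse, and Ctla4 (-1.02) was -1.17 to 0.039 without a mouse. Between carcinomas and non-TRIM24 tumors, Cd86 (0.33) was -0.015 with quantile normalization and -0.62 to 0.86 without a mouse, Ctla4 (0.28) was -0.45 with libraries as independent and -0.50 to 0.39 without a mouse, Cd274 (0.55) was -0.27 to 1.93 without a mouse, and Pdcd1 (0.71) was -0.006 to 0.85 without a mouse.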

Other observations

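The second libraries of mice 133 and 3956 give the spread between libraries of 1 mouse. Of 20 pairs of values (10 members in 2 mice), 19 differed by less than 0.5 on the log2(TPM + 1) scale, and the widest, Cd86 in control gland 133, differed by 0.53, from 5.05 TPM in the first library to 3.19 in the second. Vtcn1 stood at 0.23 and 0.27 TPM in tumor 3956 and at 8.19 and 8.38 in gland 133, and Cd276 at 37.5 and 34.7 in tumor 3956 and at 2.98 and 3.03 in gland 133. Batch and library cannot be told apart in these pairs.

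The 5 NK cell genes ran from 4.49 to 24.7 TPM in the Trim24COE tumors and from 6.63 to 28.7 in the controls, and 1 was called lower. Foxp3, which defines regulatory T cells, was between 0.06 and 1.23 TPM in the Trim24COE tumors and between 0.19 and 0.74 in the controls.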
